A study of Homo sapiens with 6 samples.

Results

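The genes described here code for 9 kinases that phosphorylate splicing factors: CLK1, CLK2, CLK3, CLK4, SRPK1, SRPK2, DYRK1A, DYRK1B and PRPF4B. They were taken by symbol from the authors' deposited table of 36651 genes, in which each of the 9 symbols occurred in a single row. The table gives FPKM, a fragment count scaled by gene length and by the mapped total, for HCT116, an established human cell line from a colorectal carcinoma. Polyadenylated RNA was sequenced from 3 control libraries and 3 libraries in which MTA1, a subunit of the NuRD nucleosome remodelling and deacetylase complex, was targeted. The treated samples are called siMTA in the descriptions and CrMTA1 in the titles, and the controls Ctrl and WT. The labels name no other agent or allele and do not state how MTA1 was lowered, what the control received, or whether a clone was selected. Separate cultures are not named for the replicates, so the p-values are set against a spread among libraries that may be technical alone.

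SR proteins are splicing factors with a tail rich in arginine and serine, and the phosphorylation of that tail sets where they sit and how they act. In the usual account SRPKs act mainly in the cytoplasm and phosphorylate the tail so that the protein is imported into the nucleus. CLKs, nuclear kinases that also phosphorylate tyrosine on themselves, add further phosphate and release SR proteins from nuclear speckles. DYRK1 kinases lie in the same branch of the kinome and phosphorylate splicing factors along with many other targets, and PRPF4B acts within the spliceosome on proteins of the tri-snRNP. CLK transcripts are themselves known to be regulated by alternative splicing, including intron-containing forms that stay in the nucleus. The study's title names both expression and alternative splicing. A gene-level FPKM adds up all forms of a gene, so isoforms were not analysed here.

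With siMTA1 the levels of CLK1 and CLK2 rose, and no other kinase of the group passed the test. CLK1 stood at 133.2% and CLK2 at 130.6% of its control mean. Of the 9 kinases, 8 reached the mean of 1 FPKM required for testing. Among these, 2 were higher, 0 were lower and 6 did not pass (limma, adjusted p under 0.05, siMTA1 minus control). Across all 12141 tested genes 18.2% passed, 6.13% higher and 12.1% lower. The split between higher and lower genes was 744 to 1463 on the deposited scale, 1000 to 939 with upper-quartile scaling, 1011 to 895 with quantile normalization and 1128 to 802 with median centring. The 8 tested kinases had a median log2 fold change of 0.03, against −0.05 for all tested genes. The groups did not overlap for 3 of the 8, of which 2 were higher and 1 lower, against 39.1% of all tested genes, 13.2% higher and 25.9% lower. Because the RNA came from bulk cultures, fewer cells expressing a gene and less RNA per cell cannot be told apart.

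The upstream sequences of CLK1, CLK2 and CLK4 are shown because the first pair rose and CLK4, a CLK gene of low level, did not pass the test. Each stretch lies before the start of transcription in the RefSeq promoter table (GRCh38.p14), reads 5′ to 3′ on the strand of the gene, and holds no base that GENCODE 29 annotates as exon. The CLK1 stretch ends where the annotated gene begins, whereas those of CLK2 and CLK4 lie within the annotated span of the gene, between exons. The CLK1 stretch covers chr2:200864745-200864908 on the minus strand, the CLK2 stretch chr1:155273517-155273754 on the minus strand, and the CLK4 stretch chr5:178627115-178627300 on the minus strand. Capitals mark matches to the GC box GGGCGG, the E-box CACGTG and the core TGACG of the cyclic AMP response element, searched on both strands.
CLK1: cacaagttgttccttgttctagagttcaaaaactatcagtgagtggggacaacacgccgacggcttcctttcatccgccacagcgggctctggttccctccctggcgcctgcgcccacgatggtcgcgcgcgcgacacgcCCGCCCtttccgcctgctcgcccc
CLK2: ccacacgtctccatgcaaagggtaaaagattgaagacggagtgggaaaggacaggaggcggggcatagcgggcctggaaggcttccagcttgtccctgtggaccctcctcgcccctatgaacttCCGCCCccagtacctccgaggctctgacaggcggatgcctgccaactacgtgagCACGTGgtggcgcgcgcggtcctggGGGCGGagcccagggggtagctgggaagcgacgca
CLK4: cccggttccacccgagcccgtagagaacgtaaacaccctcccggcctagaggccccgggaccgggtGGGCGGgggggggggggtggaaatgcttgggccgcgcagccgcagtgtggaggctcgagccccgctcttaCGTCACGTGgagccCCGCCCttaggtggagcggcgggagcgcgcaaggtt

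Over the full 250 bases, part of which is not printed, before the first listed start, CLK1, CLK2 and CLK4 each held 2 GC boxes. CLK2 and CLK4 held 1 E-box each and CLK1 held 0, whereas the TGACG core occurred 1 time in CLK1 and in CLK4 and 0 times in CLK2. In CLK4 the E-box and the core overlap. CLK3, which did not pass either, has 2 listed starts: the first held 2 CCAAT boxes and 0 of the GC box, E-box and TGACG core, and the second held 2 GC boxes and 1 TGACG core. Of 35116 RefSeq promoters, 42.6% held a GC box, 6.35% an E-box and 21.2% the TGACG core in the same 250 bases. CCAAT and TATAAA, which 32.0% and 10.7% of promoters held, did not occur in these windows of CLK1, CLK2 and CLK4. A match describes letters only.

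Before the kinases, the targeted gene was checked. Here and below, the 3 values of a group are listed in the order of libraries 1, 2 and 3. MTA1 stood at 65.90, 67.61 and 66.74 FPKM in the controls, against 44.55, 43.98 and 47.97 FPKM under siMTA1. Every siMTA1 library was below every control library, with a log2 fold change of −0.54 (limma adjusted p = 0.000376). Steps in the low values of genes shorter than 150 bases implied depths of 42900000 to 66700000 fragments per library. Epithelial markers summed to 6592.4 to 6911.7 FPKM in control and 5696.1 to 6343.4 FPKM with siMTA1, with VIL1 at most at 0.04 FPKM. Of these 7 markers, 6 were tested, of which CDH1 was higher and KRT8 and KRT18 were lower. The 4 endothelial markers summed to at most 0.28 FPKM and the 4 leukocyte markers in the table to at most 0.19 FPKM. Fibroblast markers summed to 1.94 to 2.01 and 2.17 to 2.76 FPKM, of which COL1A1 made up nearly all, with DCN listed at 0 in all libraries. Neuronal markers summed to 6.74 to 7.25 and 5.66 to 6.28 FPKM, nearly all of it SYT1, which was lower, and MAP2. The part of these markers in the results below was not tested.

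**Figure D1:**
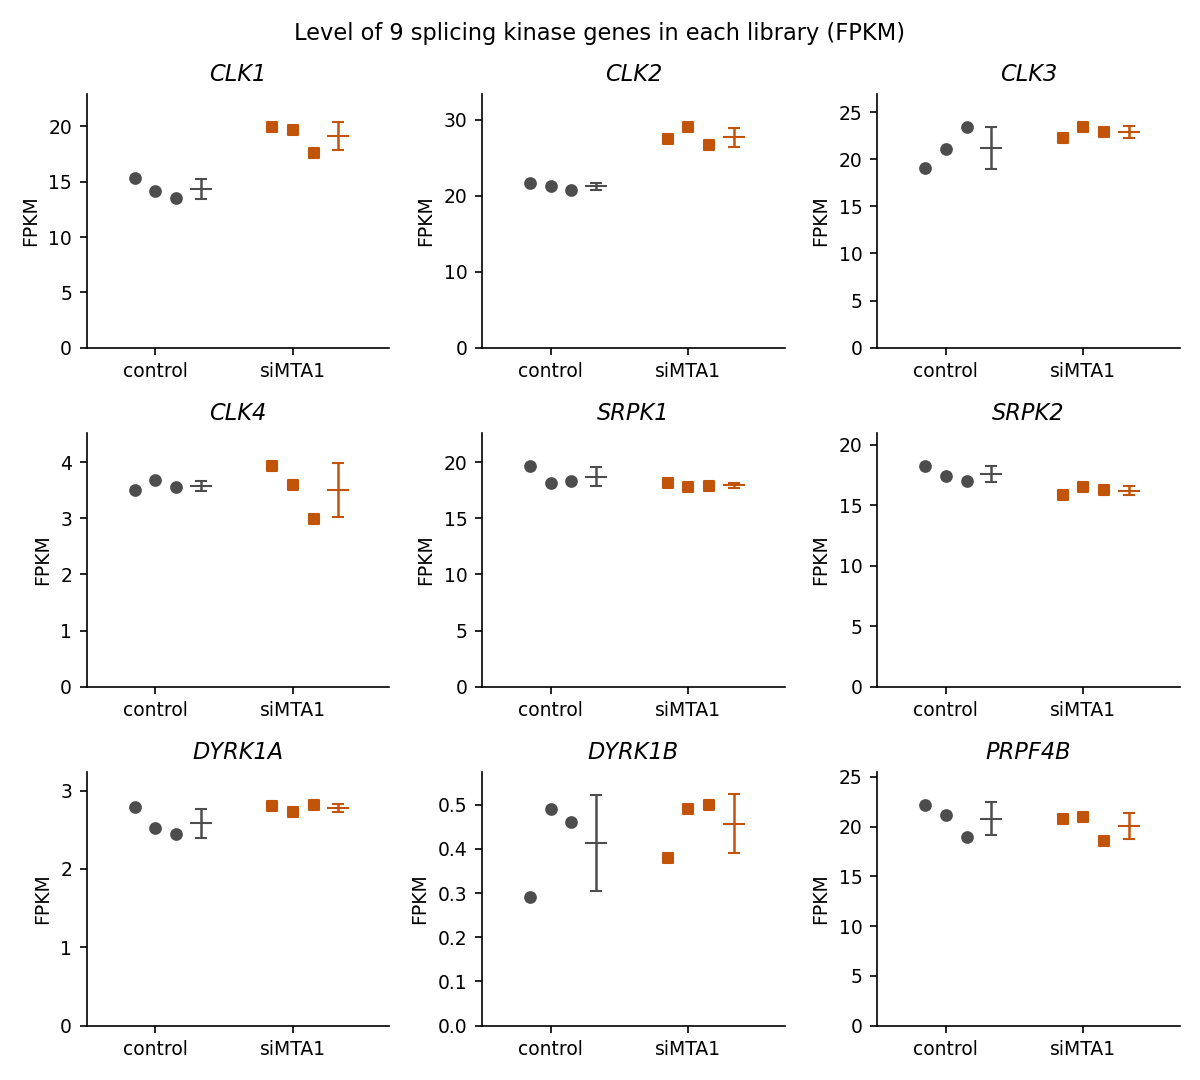
FPKM of the 9 kinase genes (vertical axis from 0, one panel per gene) in 3 control libraries (grey circles) and 3 siMTA1 libraries (orange squares), with the mean and SD of each group beside the points. All siMTA1 points lie above all control points for CLK1 (17.64 against 15.34 at the closest) and CLK2 (26.65 against 21.65), and below them for SRPK2 (16.5 against 17.01).

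CLK1 (ENSG00000013441.15) lies on chromosome 2 from 200853009 to 200864744 on the minus strand (GRCh38). It stood at 15.34, 14.19 and 13.51 FPKM in the controls, against 19.98, 19.69 and 17.64 FPKM under siMTA1. The lowest siMTA1 library was above the highest control library. Means were 14.3 ± 0.925 and 19.1 ± 1.28 FPKM (SD, n = 3 each). The log2 fold change was 0.39 (SE 0.07, 95% interval 0.23 to 0.54, limma adjusted p = 0.00643). A larger log2 fold change was found for 2.07% of all tested genes and for 30.9% of those called higher. GENCODE 29 lists 15 transcripts for CLK1, of which 4 are protein-coding, 8 retain an intron and 2 are targets of nonsense-mediated decay. How the rise was divided among these forms was not analysed here.

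CLK2 (ENSG00000176444.18), on chromosome 1 from 155262868 to 155278491 on the minus strand, had the highest mean of the 9 over all 6 libraries, although its control mean differed little from that of CLK3 (21.2 FPKM each). It stood at 21.65, 21.23 and 20.82 FPKM in the controls, against 27.46, 29.11 and 26.65 FPKM under siMTA1. The control values lay close together and all siMTA1 values lay well above them. Means were 21.2 ± 0.415 and 27.7 ± 1.25 FPKM (SD, n = 3 each). For CLK2 the log2 fold change was 0.37 (SE 0.06, 95% interval 0.24 to 0.49, limma adjusted p = 0.00312). None of its 7 annotated transcripts is a retained-intron form. The processed pseudogene CLK2P1 was listed at 0 in all libraries.

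CLK1 and CLK2 were called in all 21 alternative analyses of each, including those with each library left out. Their log2 fold changes ranged from 0.32 to 0.44 for CLK1 and from 0.32 to 0.42 for CLK2. The highest adjusted p values were 0.0481 and 0.0202, both with no filter on low values. An exact two-sided permutation test on the FPKM of the 6 libraries gave p = 0.1 for each gene, the smallest that 3 against 3 libraries allow.

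CLK3 (ENSG00000179335.18, chromosome 15 from 74598500 to 74645414, plus strand) had nearly the same mean FPKM as CLK2 in the controls. Its values were 19.03, 21.11 and 23.46 FPKM in the controls, against 22.28, 23.45 and 22.94 FPKM under siMTA1. The groups overlapped, with control library 3 above all siMTA1 libraries. The log2 fold change was 0.11 (SE 0.07, 95% interval −0.06 to 0.28, limma adjusted p = 0.319). This interval includes 0, and its upper end overlaps the intervals of CLK1 and CLK2, which begin at 0.23 and 0.24. CLK3 shares 701 exon bases with EDC3 on the opposite strand, which stood at 5.61 to 6.50 FPKM. Since it is not known whether strand entered the counting, part of the CLK3 level may be reads of EDC3.

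CLK4 (ENSG00000113240.12, chromosome 5 from 178602664 to 178630615, minus strand) had a far lower FPKM than the other CLK genes. Its values were 3.50, 3.68 and 3.56 FPKM in the controls, against 3.94, 3.60 and 2.99 FPKM under siMTA1. The siMTA1 libraries enclosed the control values, with library 1 above and library 3 below all controls. The log2 fold change was −0.03 (SE 0.08, 95% interval −0.21 to 0.15, limma adjusted p = 0.836). Its sign depended on the setting, with a range of −0.10 to 0.06 over 20 alternatives, none past the threshold.

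**Figure D2:**
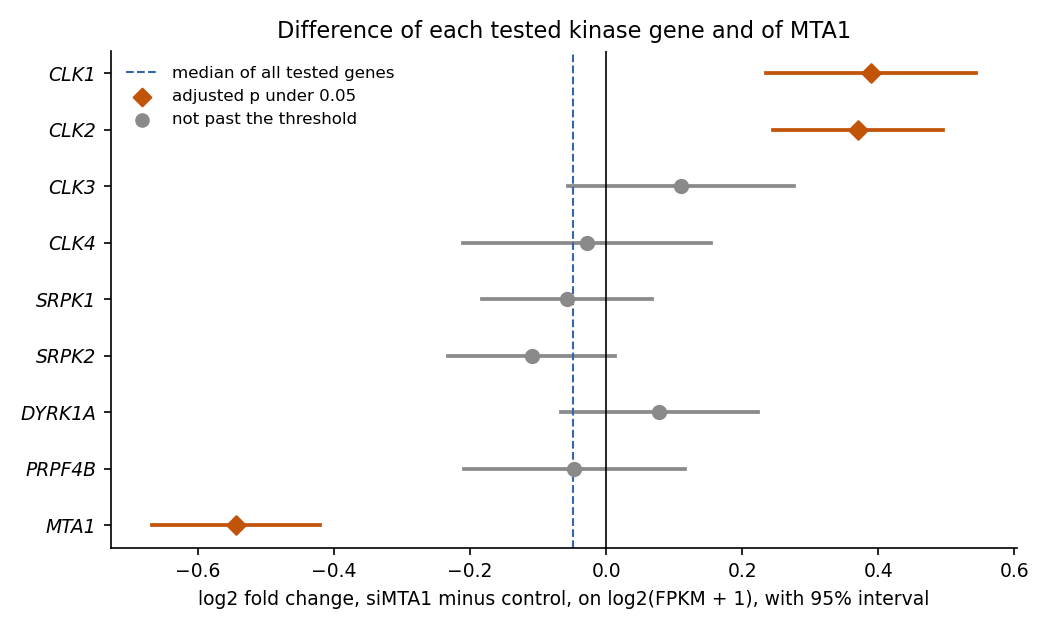
Log2 fold change (siMTA1 minus control, on log2(FPKM + 1)) of the 8 tested kinase genes and MTA1, with bars for the 95% interval of limma, diamonds for adjusted p under 0.05 and circles for genes that did not pass. CLK1 at 0.39 and CLK2 at 0.37 lie to the right of 0 and MTA1 at −0.54 to the left, while the other intervals include 0. The dashed line marks the median of all tested genes, −0.05.

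The summed level of the 4 CLK genes was 59.52, 60.21 and 61.35 FPKM in the controls, against 73.66, 75.85 and 70.22 FPKM under siMTA1. The groups did not overlap, and the means were 60.4 ± 0.924 and 73.2 ± 2.84 FPKM (SD, n = 3 each). For this sum the exact two-sided permutation p of 0.1 is the smallest possible here. CLK2 made up 35.2% ± 1.22 of this sum in control and 37.9% ± 0.554 with siMTA1 (SD, n = 3 each). CLK4 made up 5.93% ± 0.161 and 4.78% ± 0.546, again without overlap. This share also depends on the other CLK genes in the sum, and the FPKM of CLK4 itself overlapped between the groups. The shares of CLK1 (23.8% and 26.1%) and CLK3 (35.1% and 31.3%) overlapped between the groups.

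Ratios within a library do not depend on how that library was scaled. CLK1/CLK4 was 4.38, 3.86 and 3.79 in the controls, against 5.07, 5.47 and 5.90 under siMTA1. All siMTA1 ratios were above all control ratios, with a difference of 0.45 on the log2 scale. CLK2/CLK3 likewise went from 1.01 ± 0.125 to 1.21 ± 0.0436 (SD, n = 3 each) without overlap. CLK1/CLK2 overlapped between the groups at 0.675 ± 0.0304 and 0.689 ± 0.0345, a log2 difference of 0.03 with a pooled SD of 0.07. The 5 paralog ratios examined gave exact two-sided permutation p values of 0.1 for CLK1/CLK4 and CLK2/CLK3 (adjusted p = 0.25 over the 5 ratios) and 0.6 for CLK1/CLK2 (adjusted p = 0.75). With 3 against 3 libraries, no ratio could have passed.

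**Figure D3:**
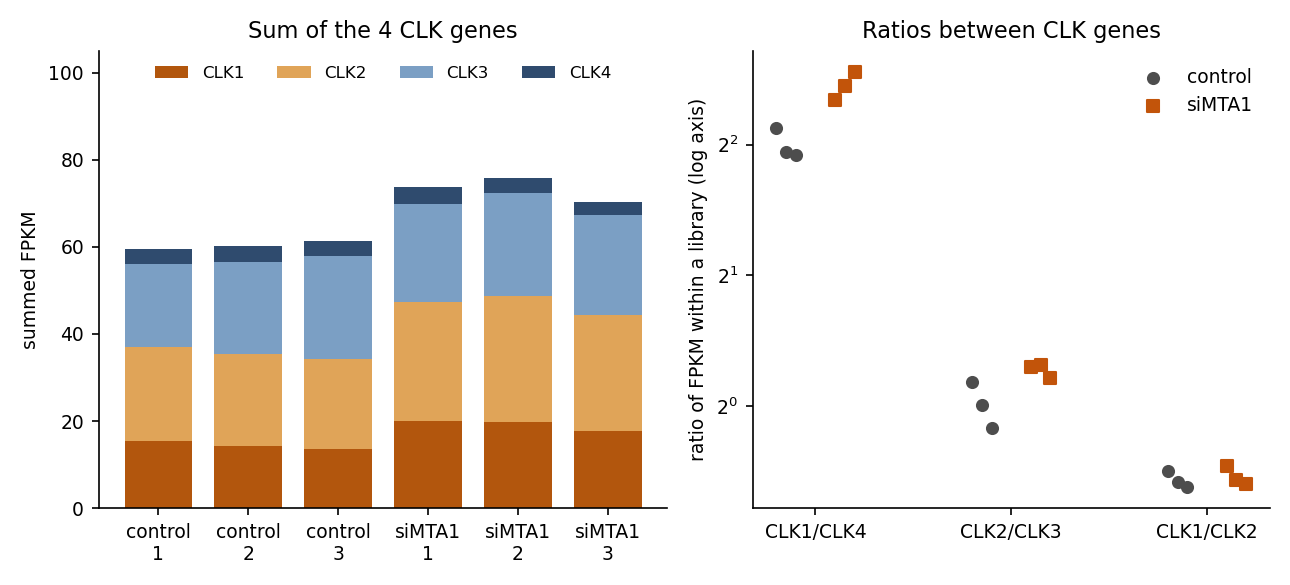
Left, stacked FPKM of CLK1 to CLK4 in each library (vertical axis from 0), with control sums of 59.52 to 61.35 and siMTA1 sums of 70.22 to 75.85 FPKM. Right, FPKM ratios within each library on a log axis, in which the CLK1/CLK4 and CLK2/CLK3 ratios of siMTA1 libraries (orange squares) lie above those of control libraries (grey circles) and the CLK1/CLK2 ratios overlap.

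SRPK1 (ENSG00000096063.14, chromosome 6 from 35832966 to 35921342, minus strand) codes for the kinase best known for phosphorylating SRSF1. It stood at 19.69, 18.13 and 18.29 FPKM in the controls, against 18.16, 17.76 and 17.85 FPKM under siMTA1. The siMTA1 values lay in a narrow band that held control library 2, and the other controls were above it. Its log2 fold change was −0.06 (SE 0.06, 95% interval −0.18 to 0.07, limma adjusted p = 0.497).

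SRPK2 (ENSG00000135250.16, chromosome 7 from 105110704 to 105399308, minus strand), the paralog of SRPK1, stood at 18.26, 17.39 and 17.01 FPKM in the controls. Under siMTA1 it was at 15.80, 16.50 and 16.28 FPKM. All siMTA1 values were below all control values, which was also the case for 25.9% of all tested genes. The difference did not pass, at −0.11 on the log2 scale (SE 0.06, 95% interval −0.23 to 0.01, limma adjusted p = 0.187). Over 21 alternatives its log2 fold change ranged from −0.13 to −0.06 and the adjusted p from 0.0955 to 0.527. SRPK2 shares 98 exon bases with KMT2E on the opposite strand, which stood at 9.34 to 11.68 FPKM. The 2 SRPK genes summed to 36.3 ± 1.47 FPKM in control and to 34.1 ± 0.15 FPKM under siMTA1 (SD, n = 3 each), lower without overlap (exact permutation p = 0.1). The SRPK1/SRPK2 ratio was 1.07 ± 0.0198 in control and 1.11 ± 0.0377 with siMTA1 (SD, n = 3 each), and the groups overlapped (exact permutation p = 0.2, adjusted p = 0.333).

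DYRK1A (ENSG00000157540.19, chromosome 21 from 37365573 to 37526358, plus strand) codes for a dosage-sensitive kinase that also acts on cell cycle exit and calcineurin-NFAT signalling. It stood at 2.79, 2.52 and 2.44 FPKM in the controls, against 2.80, 2.72 and 2.82 FPKM under siMTA1. Control library 1 reached the siMTA1 values, so the groups overlapped. The log2 fold change was 0.08 (SE 0.06, 95% interval −0.07 to 0.22, limma adjusted p = 0.422).

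DYRK1B (ENSG00000105204.13, chromosome 19 from 39825350 to 39834201, minus strand), a paralog known from quiescent cells and muscle, had the lowest FPKM of the 9 and was not tested. Its values were 0.29, 0.49 and 0.46 FPKM in the controls, against 0.38, 0.49 and 0.50 FPKM under siMTA1. The groups overlapped, and the lowest value was in control library 1, the library of least implied depth. At the implied depths and the exon length of GENCODE 29 these values correspond to 40 to 104 fragments per library, against at least 1190 for any other of the 9 kinases. Where a mean of 0.1 FPKM sufficed for testing, its log2 fold change was 0.05 (SE 0.08, limma adjusted p = 0.752). The DYRK1A/DYRK1B ratio was 6.69 ± 2.54 in control and 6.19 ± 1.02 with siMTA1 (SD, n = 3 each), and the groups overlapped (exact permutation p = 1, adjusted p = 1).

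PRPF4B (ENSG00000112739.16, chromosome 6 from 4021267 to 4064983, plus strand) stood at 22.20, 21.18 and 19.00 FPKM in the controls, against 20.72, 20.94 and 18.59 FPKM under siMTA1. The groups overlapped over most of their range. The log2 fold change was −0.05 (SE 0.07, 95% interval −0.21 to 0.12, limma adjusted p = 0.678). Over 21 alternatives it ranged from −0.11 to 0.01, so the sign of this small difference was not fixed.

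By mean FPKM over the 6 libraries, which is a level per gene length, the order was CLK2 (24.5 FPKM), CLK3 (22.0), PRPF4B (20.4), SRPK1 (18.3), SRPK2 (16.9), CLK1 (16.7), CLK4 (3.55), DYRK1A (2.68) and DYRK1B (0.435). The ranges over the 6 libraries of neighbours in this order overlapped from CLK2 down to CLK1. CLK4, DYRK1A and DYRK1B were each separated from the gene above. Exon lengths in GENCODE 29 ran from 3192 bases for DYRK1B and 3670 for CLK2 to 20443 for CLK3 and 26602 for DYRK1A. The lengths used for the deposited FPKM are not known, and how far the order depends on them was not tested. The order differed between the groups for CLK1, whose mean was below that of SRPK2 in control (14.3 against 17.6 FPKM) and above those of SRPK1 and SRPK2 with siMTA1 (19.1 against 17.9 and 16.2 FPKM). The tested kinases thus fell into a group of 6 genes between 13.51 and 29.11 FPKM in every library and a pair, CLK4 and DYRK1A, between 2.44 and 3.94 FPKM.

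For the kinase with the smallest adjusted p in each family, the tested genes of at least 5 FPKM whose log2(FPKM + 1) followed it most closely over the 6 libraries were listed, as a description. The 6 libraries fall into the 2 groups, so a gene that differs between them can score high on that ground. For CLK2 these were BIRC5 (Pearson's r = 0.993), MKI67 (0.991) and C14orf159 (0.989). BIRC5 and MKI67 are markers of proliferating cells, and both were higher with siMTA1, at log2 fold changes of 0.27 (limma adjusted p = 0.00879) and 0.59 (limma adjusted p = 0.000286). CLK1 ranked 55 among the 7086 genes compared with CLK2, with r = 0.969, and 124 genes had r above 0.95. For SRPK2 the closest were ATP5L (0.985), ALG5 (0.980) and MGST1 (0.979), for DYRK1A FAM107B (0.991), NEDD1 (0.989) and CBR4 (0.987), and for PRPF4B SSB (0.991), GGCT (0.991) and ZBTB8OS (0.981).

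Among the SR proteins, the substrates of these kinases, 13 of 14 were tested, of which 1 was higher and 1 lower, against 6.13% and 12.1% of all tested genes. Their median log2 fold change was 0.07, against −0.05 for all tested genes. SRSF4 stood at 102.96, 119.60 and 114.21 FPKM in the controls, against 134.68, 143.66 and 141.98 FPKM under siMTA1, without overlap. Its log2 fold change was 0.32 (limma adjusted p = 0.0115, and 0.0713 with no filter on low values). SRSF8, an intronless relative of SRSF2 with which it could share reads, was at 13.54, 13.11 and 12.21 FPKM in the controls, against 8.42, 8.46 and 7.85 FPKM under siMTA1. This fall of the SRSF8 level (log2 fold change −0.59, limma adjusted p = 0.000417) held in all 21 alternatives. SRSF1, the main substrate of SRPK1 in most accounts, was at 37.1 ± 2.43 and 44.3 ± 5.87 FPKM (SD, n = 3 each) and did not pass (limma adjusted p = 0.0924). It did pass without siMTA1 library 3 (adjusted p = 0.0188), with array weights (0.00917) and with the replicate block (0.0441).

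Of 13 other kinases of the same branch, 11 were tested. CDK9, which phosphorylates the tail of RNA polymerase II during elongation, was the single gene called higher, and 0 were lower. Among all tested genes the shares were 6.13% higher and 12.1% lower. CDK9 was at 24.9 ± 0.931 and 28.7 ± 1.60 FPKM (SD, n = 3 each, log2 fold change 0.20, limma adjusted p = 0.0488), a call that ended in 8 alternatives. HIPK3 (−0.27, limma adjusted p = 0.0575) and HIPK2 (0.17, limma adjusted p = 0.0636) did not pass. HIPK2 did pass in 6 alternatives, among them upper-quartile scaling (adjusted p = 0.0308) and median centring (0.023), and HIPK3 in 3, among them omission of control library 3 (0.0416). SRPK3, known from muscle, was at 0.04 FPKM or less in every library.

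The phosphatase list, which holds the catalytic subunits of PP1 and PP2A that remove phosphate from SR proteins, gave 0 higher and 1 lower of 8 tested. Of all tested genes, 6.13% were higher and 12.1% lower. PPP1CA stood at 46.68, 46.93 and 58.04 FPKM in the controls, against 41.10, 40.84 and 42.73 FPKM under siMTA1. All siMTA1 values were lower, but control library 3 stood far above the other controls. The call of PPP1CA (log2 fold change −0.27, limma adjusted p = 0.0485) ended in 13 alternatives, among them no filter on low values (adjusted p = 0.198), median centring (0.0936) and omission of control library 3 (0.091). PPP2CA (−0.14) and PPP1CC (−0.11) did not pass, although PPP2CA did with array weights (adjusted p = 0.0467). The median of the list was −0.09, against −0.05 for all tested genes.

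The list of partners and carriers holds chaperones, importers of SR proteins, DCAF7, SAFB, SAFB2 and AKT1. It gave 0 higher and 3 lower genes of 11 tested, against 6.13% higher and 12.1% lower among all tested genes. The median of the list was −0.04. HSPA8, a heat shock cognate made without stress, went from 670.6 ± 10.96 to 508.3 ± 11.3 FPKM (SD, n = 3 each, log2 fold change −0.40, limma adjusted p = 0.00148). HSP90AA1 was at 1398.6 ± 102 and 1062.5 ± 108 FPKM and the HSP90 activator gene AHSA1 at 121.9 ± 2.86 and 99.0 ± 3.91 FPKM. The adjusted p of HSP90AA1 was 0.0130, and 0.137 with no filter on low values. HSP90AB1, the second cytosolic HSP90 gene, had a log2 fold change of 0.06 (limma adjusted p = 0.518). TNPO3, the importer of phosphorylated SR proteins, was at 0.11 (adjusted p = 0.233), and the DYRK1 scaffold gene DCAF7 at −0.03 (adjusted p = 0.783).

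In the list of tri-snRNP and U1 proteins, 1 of 10 was higher and 0 lower, against 6.13% and 12.1% of all tested genes. The median was 0.07, against −0.05 for all tested genes. SNRNP70, the U1 protein that SRSF1 contacts, was at 138.2 ± 5.67 and 164.05 ± 10.1 FPKM (SD, n = 3 each, log2 fold change 0.25, limma adjusted p = 0.0254). That call ended without control library 2 (adjusted p = 0.104), control library 3 (0.0581) or siMTA1 library 2 (0.0912) and with no filter on low values (0.102). PRPF3 (0.15) and PRPF4 (0.16) did not pass, although PRPF3 did with median centring (adjusted p = 0.0356), upper-quartile scaling (0.0432) and array weights (0.00892). PRPF6 (−0.03) and PRPF31 (0.08), known targets of PRPF4B, did not pass either.

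Subunits of the DREAM complex, a repressor of cell cycle genes that DYRK1A helps to assemble, were listed with other DYRK1 targets, and 1 of 17 tested was higher and 3 lower, against 6.13% and 12.1% of all tested genes. The median was −0.03. CCND1, cyclin D1, which DYRK1 kinases mark for degradation, went from 239.4 ± 4.70 to 199.4 ± 6.79 FPKM (SD, n = 3 each, limma adjusted p = 0.0105, and 0.0546 without control library 2). E2F5 and NFATC3 had log2 fold changes of −0.30 (limma adjusted p = 0.0252) and −0.25 (0.0266), and CDKN1B, the inhibitor p27, of 0.27 (0.0300). The calls of E2F5 and NFATC3 ended without control library 2 or 3, without siMTA1 library 2 or 3, with median centring and with no filter on low values, where the adjusted p lay between 0.0537 and 0.118. That of CDKN1B ended without control library 2 or 3 and without siMTA1 library 1 or 3, where a mean of 0.1 FPKM was required and with no filter, where it lay between 0.0514 and 0.12. LIN52, the DREAM subunit that DYRK1A phosphorylates, had a log2 fold change of 0.02 (adjusted p = 0.869).

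**Figure D4:**
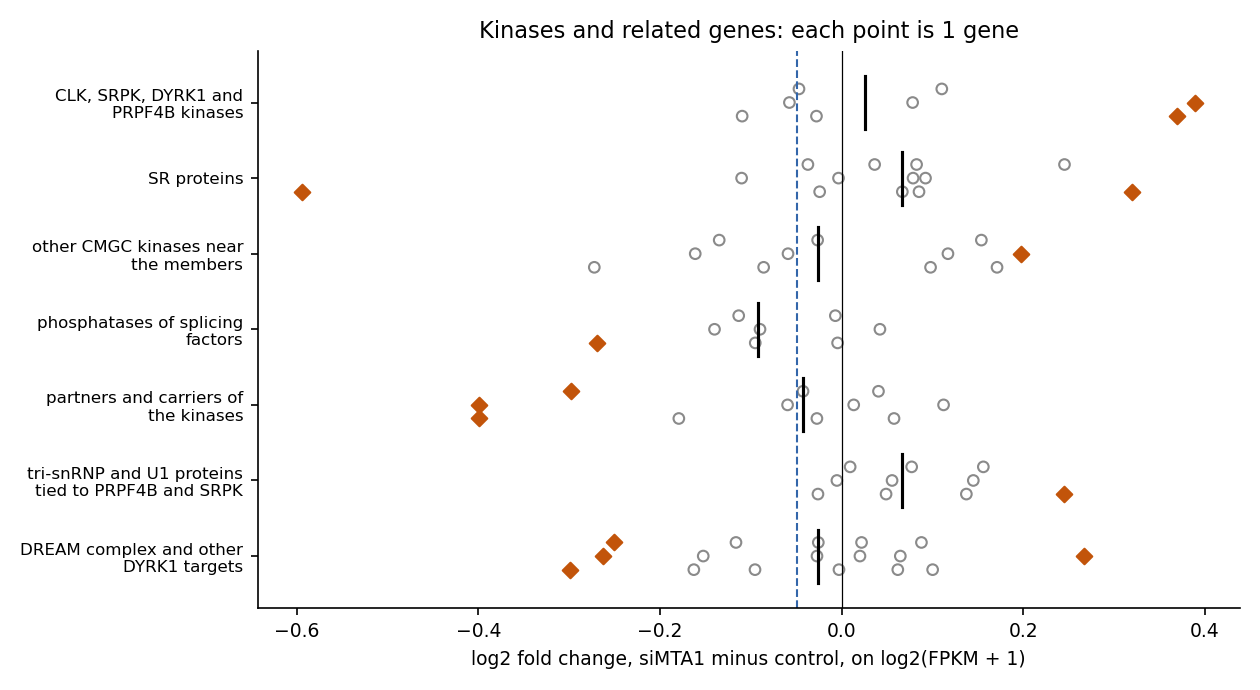
Log2 fold change (siMTA1 minus control, horizontal axis) of each tested gene of the kinase group and of 6 lists of related genes, with diamonds for adjusted p under 0.05, open circles for genes that did not pass and a black bar for the median of each list. CLK1 and CLK2 are the 2 diamonds of the top row, and SRSF8 at −0.59 is the lowest point. The dashed line is the median of all tested genes, −0.05.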

How the data were processed

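The authors deposited FPKM to 2 decimals, for 36651 genes in 6 libraries. The submitters' processing notes name cutadapt, TopHat2, edgeR and GRCh38. How reads were counted, whether by strand, and the annotation and gene lengths used were not given in the sources used here; reads of overlapping or near-identical genes could have been shared. Directional polyA libraries were sequenced paired-end, per the labels' protocols.

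Columns were assigned to samples by name. The 12141 genes whose mean reached 1 FPKM were tested on log2(FPKM + 1) with limma 3.58.1 in R 4.3.3 (empirical Bayes with intensity trend, two-sided, no covariates), and p-values were adjusted over all of them by the method of Benjamini and Hochberg. Such fold changes understate the change of low genes. Intervals of 95% come from the same fit. Single values and 5 ratios were tested by exact permutation in Python 3.11.15, with pandas 2.3.3 for tables and matplotlib 3.10.9 for figures.

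The kinases, the 6 related lists and the marker lists were chosen with earlier results of these data known. The rule for names was MTA1, the 9 kinases, of each list the 3 genes with the smallest adjusted p and any further called gene, and the 3 genes most like the leading kinase of each family; other list members were named after their values were seen. Genes were placed with GENCODE 29 on GRCh38, in which 35749 identifiers were found. Promoters came from RefSeq (GRCh38.p14) and all 9 kinases matched, PRPF4B under the symbol PRP4K.

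Depth was inferred from genes shorter than 150 bases, choosing the total that turned their lowest FPKM into whole fragments. Between 88.9% and 100% of their low values were then whole within 0.04 of a fragment beyond rounding. In simulated data of 12141 genes, sets of 50 genes were given log2 changes of 0.3, 0.6, 1 and 1.5. The test recovered 38%, 86%, 100% and 98% of these sets, and 3.01% of its calls were false. Changed genes made up a far smaller share there than the 18.2% of genes called in the real data. The simulated figures therefore do not give the recovery or the share of false calls in the real data. The alternatives were other pseudocounts, filters, scalings, limma settings, a replicate block and each library left out.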

Additional observations from a re-analysis of the deposited data

How the results depend on the processing

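Among the 9 kinases, 2 were called higher and 0 lower under every alternative, and the fall of MTA1 was called in each as well. Over all genes the counts moved by more than 1.5 times in some settings. With no filter on low values 297 of 33126 tested genes were higher and 379 lower. Where a mean of 5 FPKM was required, 532 of 7087 were higher and 1143 lower. The filters thus change the number of genes tested and adjusted over, so these counts have unlike bases. With array weights 1434 of 12141 tested genes were higher and 2615 lower. The number of lower genes was 939 with upper-quartile scaling, 895 with quantile normalization and 802 with median centring, which gave 1128 higher genes. With each library left out in turn, 388 to 631 genes were higher and 640 to 1199 lower, the fewest higher without control library 2 and the fewest lower without siMTA1 library 2. No setting moved the median log2 fold change of all genes by more than 0.1. That median was itself small, however, at −0.049 on the deposited scale. It was −0.011 with upper-quartile scaling, −0.007 with quantile normalization and 0.005 with median centring. The cause of these shifts was not tested. The replicate block was run although the labels tie same-numbered libraries by number alone and do not state whether they shared a batch. Their deviations from the group means correlated with r of 0.331, 0.0219 and 0.219. For the other pairs r lay between −0.277 and 0.0712, and control library 2 did not correlate best with its own number. With the block 992 genes were higher and 2039 lower, and the kinase counts stayed at 2 and 0. A count-based test was not run because the table holds no counts. The depth of DYRK1B, at most 104 implied fragments per library, limits what can be said of that gene.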

Other observations

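CLASRP, a serine and arginine rich protein named for its binding to CLK4, belongs to none of the lists and was chosen after its values were seen. It stood at 16.55, 16.34 and 16.87 FPKM in the controls, against 18.71, 20.20 and 19.21 FPKM under siMTA1. The groups did not overlap, and the log2 fold change was 0.21 (SE 0.05, limma adjusted p = 0.0274).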
